A study of Mus musculus with 4 samples.

Results

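Integrins are membrane receptors made of an alpha and a beta chain that hold cells to collagens, fibronectin, laminins and other matrix proteins, and some of them, found on leukocytes, bind other cells. Talins and kindlins attach to the tail of the beta chain inside the cell and switch the receptor on, after which scaffold proteins, kinases and actin-binding proteins gather there as a focal adhesion that links matrix to actin. In marrow stroma these contacts anchor the cells to bone matrix and pass tension to the nucleus, while in macrophages integrins with the beta2 chain serve adhesion and phagocytosis. The data below describe 40 genes of this system, 22 integrin chains and 18 cytoplasmic components. They were chosen by name, with earlier results of these data known, and all 40 were found among the 24342 gene symbols used.

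RNA-seq was performed on mBMSCs, bone marrow stromal cells grown from 3-month-old C57BL/6 mice, 72 h after transfection with siRNA. The controls received scrambled siRNA (siScr, 2 samples) and the depleted cells received siRNA against ZBP1 (siZBP1, 2 samples), so both groups were transfected. ZBP1 is a sensor of Z-form nucleic acids. Cells were selected by adherence and washing rather than by sorting, nothing in the labels ties the replicates to separate animals, and p-values therefore measure only the spread between these samples, which may be technical. The sources used here do not name the siRNA sequence behind these siZBP1 libraries.

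Values are FPKM, read fragments scaled for the length of the transcript and for the size of the library, so that levels of different genes can be set side by side. Read numbers are not part of the values and the depth is unknown. Sums of FPKM ranged from 477974 to 492166 over the samples. Zbp1 itself was at 86.0 and 62.0 FPKM in siScr cells and at 11.5 and 11.6 FPKM in siZBP1 cells (limma, log2 change -2.56, standard error, SE, 0.16, adjusted p = 0.00322). Of 12 mesenchymal stromal markers all were above the detection filter, and 17 macrophage markers were as well, with Csf1r, the receptor for the macrophage growth factor CSF1, at 467 to 584 FPKM. Neutrophil markers (8) and lymphocyte markers (7) summed to 4.64 and 0.737 FPKM at most, and 5 and 1 of them were listed at 0 in every sample. The samples thus held transcripts that mark stromal cells and macrophages, and in a bulk sample fewer cells of a type and less RNA per cell cannot be told apart.

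Of the 40 genes, 37 had a mean of at least 1 FPKM and were tested by limma on log2(FPKM + 1). Itga10, Itgb7, Lims2 and Itga3 had siZBP1 means under 1 FPKM, and Itgb8 had a siScr mean under 1 FPKM. These genes passed the filter only through the group where they were high. A log2 change below is the limma estimate on that scale, siZBP1 minus siScr, and it understates the change of low genes. In siZBP1 cells 18 of the 37 were lower and 9 higher at an adjusted p under 0.05, and 10 did not pass. Over all 11956 genes tested 14.8% were lower and 13.5% were higher, or 28.3% in either direction, against 48.6% and 24.3% of the tested members. Here and below such shares are set side by side without a test. Members and lists were chosen with earlier results of these data known. Over 1.5-fold by the ratio of means as well were 12 members lower and 3 higher, against 7.13% and 3.02% of all genes tested. The median log2 change was -0.30 for the members and 0.0044 for all genes tested. The cytoplasmic components and the integrin chains differed in their counts. Of 18 cytoplasmic components 11 fell and 1 rose, while of 19 tested integrin chains 7 fell and 8 rose. Non-overlapping groups were seen in 34 of the 37 tested members, and in 68.4% of all genes tested.

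These calls rest on all 4 samples. With either siZBP1 replicate left out, 0 of the 37 members passed the limma threshold (lowest adjusted p = 0.0640 among the 27 called), although 25 and 24 of the 37 had an unadjusted p under 0.05. All 27 kept their direction in each of the 4 fits with a sample left out. Without a siScr replicate, 19 of the 27 passed whichever replicate was left out. The other 8, Zyx, Itga6, Itga4, Tln2, Itgb8, Itgax, Itgb7 and Ptk2, had limma adjusted p of up to 0.0513, 0.0666, 0.0683, 0.0798, 0.0771, 0.0885, 0.103 and 0.103 in this order. The median SE of the members was 0.06 with all samples, and 0.09 when the remaining spread came from the siScr pair alone.

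**Figure D1:**
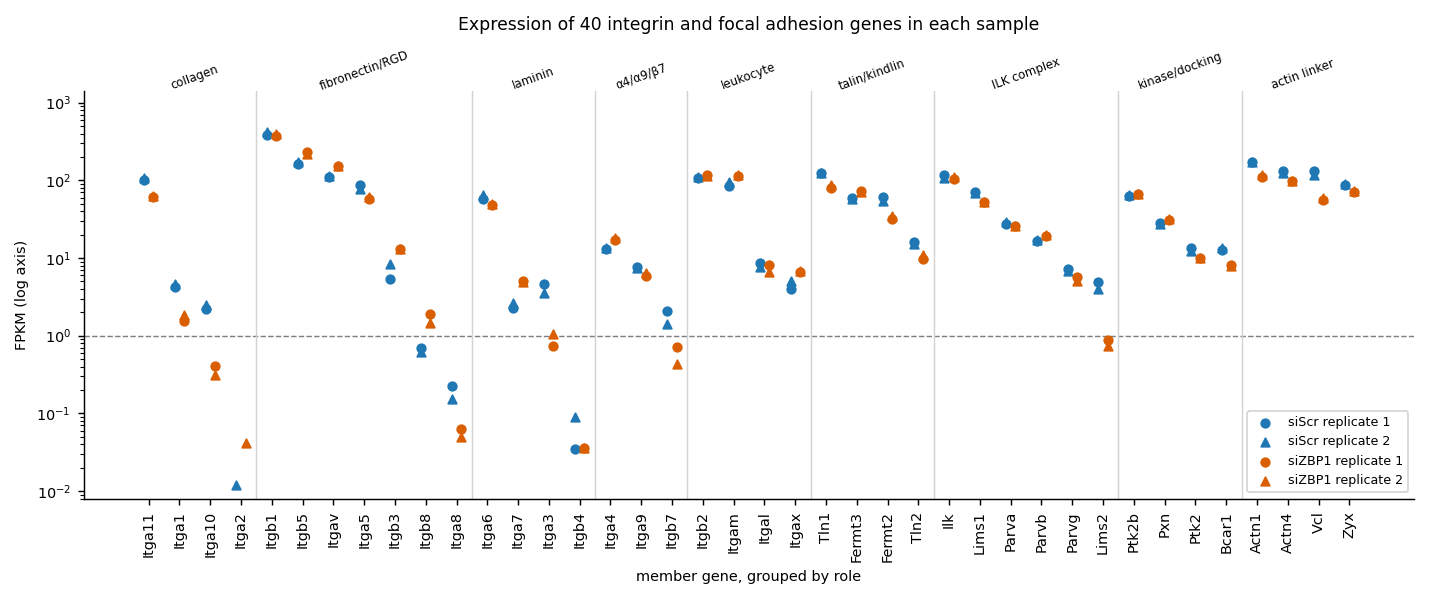
FPKM of each of the 40 genes on a log axis, grouped by role, with siScr samples in blue and siZBP1 samples in orange (circles, replicate 1, and triangles, replicate 2). Values listed at 0, which occur for Itga2 only, are not drawn, and the dashed line marks 1 FPKM. Itgb1 was highest at 377 to 416 FPKM in both groups, and Itga2, Itga8 and Itgb4 stayed under 1 FPKM.

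The collagen receptors showed the most uniform direction among the integrins. All 3 tested chains, Itga11, Itga1 and Itga10, each a partner of the beta1 chain, were lower. Itga10 passed the filter only through its siScr samples. Itga11, the main collagen-binding chain of fibroblasts and stromal cells (chromosome 9 of GRCm38, 62677826 to 62783982), was at 100.3 and 106.7 FPKM in siScr cells and at 61.0 and 62.2 FPKM in siZBP1 cells. It fell 1.68-fold by the means (limma, log2 change -0.74, SE 0.05, adjusted p = 0.00323). Itga1 was at 4.25 and 4.61 FPKM in siScr cells and at 1.52 and 1.86 FPKM in siZBP1 cells, a fall of 2.62-fold (limma adjusted p = 0.00797). Both siZBP1 samples were therefore well below both siScr samples for each of these chains. In 33.7% of all genes tested the siZBP1 samples were both below the siScr samples. Itga10, a collagen receptor best known from cartilage, was at 2.17 and 2.48 FPKM in siScr cells and at 0.411 and 0.312 FPKM in siZBP1 cells, 6.44-fold lower by the means (limma adjusted p = 0.00679). Its log2 change was -1.29. In the annotation 34.5% of its exonic bases also lie in exons of Gm42957 on the same strand. Itga2, which lies next to Itga1 on chromosome 13, was at 0.0416 FPKM at most and was listed at 0 in 1 sample of each group. The receptor tyrosine kinases Ddr1 and Ddr2, which bind collagen without an integrin, fell as well, by log2 changes of -0.91 and -0.56 (limma, adjusted p = 0.00984 and 0.00803).

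The receptors for fibronectin and other ligands with an RGD sequence went in both directions. Itgb1, the common beta partner of most stromal alpha chains, did not pass the threshold. It was at 379.5 and 415.6 FPKM in siScr cells and at 376.7 and 394.6 FPKM in siZBP1 cells, and its groups overlapped. The limma 95% interval of its log2 change reached from -0.20 to 0.12. Itga5, which forms the classical fibronectin receptor with beta1, was at 85.9 and 77.4 FPKM in siScr cells and at 58.0 and 60.5 FPKM in siZBP1 cells, 1.38-fold lower (limma adjusted p = 0.0121).

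The alpha-v chain and the beta5, beta8 and beta3 chains were higher. Itgav, which pairs with beta1, beta3, beta5 and beta8 to bind vitronectin, fibronectin and latent TGF-beta, was at 109.1 and 113.2 FPKM in siScr cells and at 150.8 and 151.2 FPKM in siZBP1 cells (limma log2 change 0.44, SE 0.04, adjusted p = 0.00524). Itgb5, a vitronectin-binding partner of alpha-v, was at 162.2 and 172.8 FPKM in siScr cells and at 228.3 and 217.1 FPKM in siZBP1 cells (limma log2 change 0.41, adjusted p = 0.00999). Both chains were thus separate between groups, at 1.36 and 1.33 times their siScr means. Groups were separate in this direction in 34.7% of all genes tested. Itgb8, which with alpha-v activates latent TGF-beta, was low at 0.701 and 0.617 FPKM in siScr cells and at 1.90 and 1.46 FPKM in siZBP1 cells (limma adjusted p = 0.0316).

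By the ratio of means Itgb8 (2.55) and Itga7 (2.02) rose more than Itgb3 (1.86). On the scale of log2(FPKM + 1), Itgb3 had the largest positive change of the tested members, 0.84 with an SE of 0.19 (limma adjusted p = 0.0380). It was at 5.41 and 8.44 FPKM in siScr cells and at 12.9 FPKM in both siZBP1 samples, so that the siScr replicates differed clearly from each other while the siZBP1 replicates did not. Its log2 change was 0.56 with siScr replicate 1 left out and 1.12 with the other siScr sample left out. Spp1, an extracellular ligand of alpha-v beta3, was likewise lowest in siScr replicate 1, with 1516 and 2625 FPKM in siScr cells and 4651 and 4447 FPKM in siZBP1 cells. The beta3 chain is abundant on osteoclasts, and of the osteoclast markers Ctsk fell, by a log2 change of -0.60 (limma, adjusted p = 0.00543), and Acp5, at 1.02 to 2.80 FPKM, did not pass (adjusted p = 0.317). The other 3 osteoclast markers were too low to test. Dcstamp was at 0.390 and 0.178 FPKM in siScr cells and at 0.467 and 0.610 FPKM in siZBP1 cells, and Ocstamp and Calcr were at 0.271 FPKM or below. Of 5 megakaryocyte and platelet markers 2 could be tested, and neither passed by limma. Pf4 was at 34.41 and 26.53 FPKM in siScr cells and at 41.27 and 40.03 FPKM in siZBP1 cells. Its log2 change was 0.42 (limma, adjusted p = 0.0742), and that of Gp1bb was -0.22 (adjusted p = 0.391). The groups did not overlap for either gene. Which cells gave the Itgb3 transcripts was not tested. Itga8 was too low to test, at 0.227 and 0.154 FPKM in siScr cells and at 0.0635 and 0.0499 FPKM in siZBP1 cells.

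**Figure D2:**
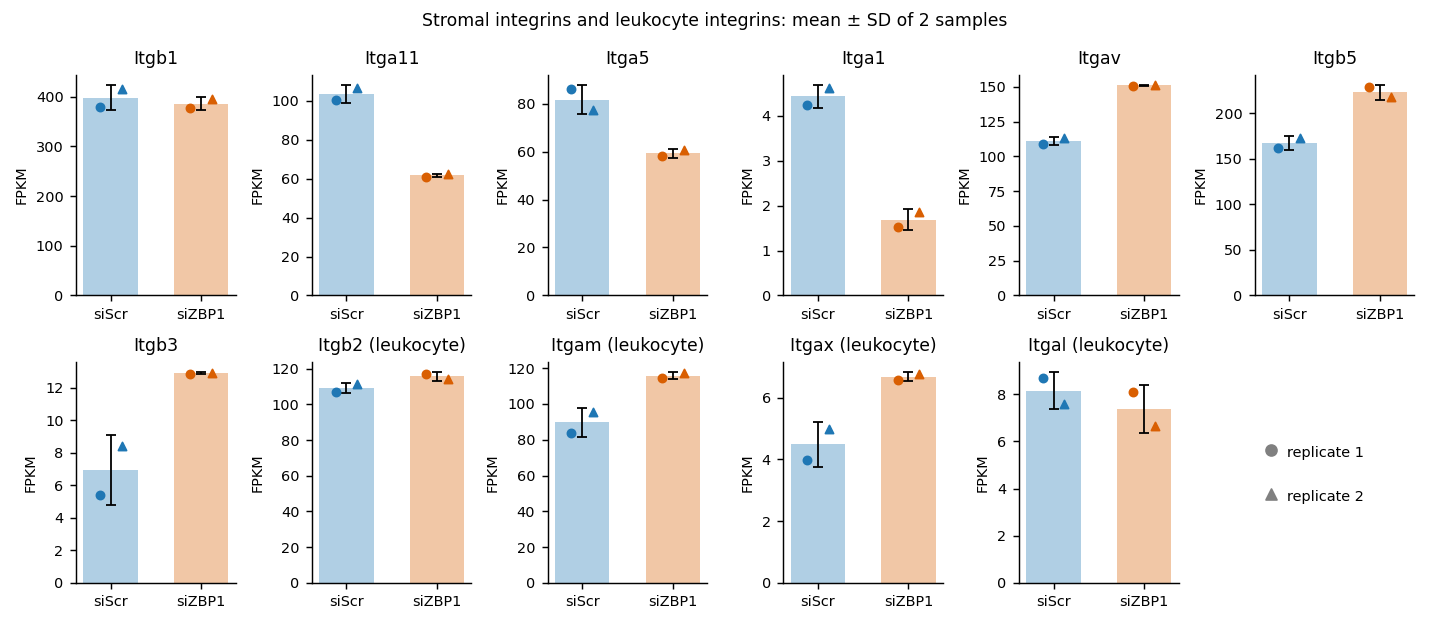
FPKM of stromal and leukocyte integrin chains, as bars of the mean with SD (n = 2 per group) and points for each sample. Itga11, Itga5 and Itga1 were lower in both siZBP1 samples than in both siScr samples, Itgav, Itgb5 and Itgb3 were higher, and of the leukocyte chains Itgam and Itgax were higher with Itgb2 and Itgal not past the threshold.

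The make-up of the integrin transcripts shifted with these changes, given here as shares of summed FPKM without a test. Of the alpha chains, Itga11 made up 20.8% and 21.2% in siScr cells and 12.8% in each siZBP1 sample, and Itga5 made up 17.8% and 15.4% against 12.2% and 12.4%. The share of Itgav was 22.6% and 22.5% in siScr cells and 31.6% and 31.1% in siZBP1 cells. Itgam rose from 17.4% and 18.9% to 24.0% and 24.1%. Itga11 and Itgav were thus near each other in siScr cells, whereas Itgav stood well above every other alpha chain in siZBP1 cells. Of the beta chains, Itgb1 went from 57.8% and 58.5% to 51.1% and 53.3%, and Itgb5 from 24.7% and 24.3% to 30.9% and 29.3%. The ratio of Itgav to Itga5 within a sample was 1.27 and 1.46 in siScr cells and 2.60 and 2.50 in siZBP1 cells. An exact two-sided permutation test of this ratio gave p = 0.333 (adjusted over 12 ratios, p = 0.364), which is the smallest that 2 samples against 2 allow. The ratio of Itgam to Itgav overlapped between groups, at 0.771 and 0.841 in siScr cells and at 0.758 and 0.775 in siZBP1 cells (exact permutation test, p = 0.667).

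The laminin receptors had no common direction. Itga6, by far the most expressed of them, was at 57.3 and 64.1 FPKM in siScr cells and at 47.9 and 49.9 FPKM in siZBP1 cells (limma log2 change -0.30, adjusted p = 0.0344). Itga3 was at 4.61 and 3.57 FPKM in siScr cells and at 0.728 and 1.06 FPKM in siZBP1 cells, 4.58-fold lower (limma adjusted p = 0.00838). Itga7, the laminin-binding chain known from muscle, was at 2.28 and 2.61 FPKM in siScr cells and at 5.01 and 4.87 FPKM in siZBP1 cells, 2.02 times as high (limma adjusted p = 0.00953). Itga3, with the larger fall, and Itga7, which rose, were thus both at a few FPKM. Itgb4, the laminin-binding beta chain of epithelial hemidesmosomes, was at most 0.0897 FPKM. Of the chains that join beta1 or beta7 to bind VCAM1 and other ligands, Itga4 was higher, from 13.0 and 13.3 FPKM in siScr cells to 17.0 and 17.9 FPKM in siZBP1 cells (limma adjusted p = 0.0143), and Itga9 did not pass (log2 change -0.25, adjusted p = 0.0785). Itgb7, a beta chain of lymphocyte homing receptors, fell from 2.08 and 1.41 FPKM to 0.715 and 0.435 FPKM (limma adjusted p = 0.0409).

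The leukocyte integrins were set against the stromal receptors for collagen and fibronectin. Over all genes tested 14.8% were lower and 13.5% higher. Of the 4 leukocyte chains, 0 were lower and 2 were higher by limma, and their median log2 change was 0.22. Of the 7 tested stromal receptors (Itga1, Itga10, Itga11, Itga5, Itgav, Itgb1 and Itgb3) 4 were lower and 2 higher, with a median of -0.46. This depends on which chains are counted. With Itgb5 and Itgb8 added, 4 of 9 were lower and 4 higher, with a median of -0.043. Itga10 and Itgb8 passed the filter only through the group where they were high. The collagen receptors alone had a median of -1.02, and the 6 tested receptors for fibronectin and RGD ligands alone had 1 lower, 4 higher and a median of 0.42. Itgb2, the beta chain that all leukocyte-restricted alpha chains of this list share, was at 107.2 and 111.4 FPKM in siScr cells and at 117.3 and 114.1 FPKM in siZBP1 cells. This difference was small and did not pass (limma log2 change 0.08, 95% interval -0.03 to 0.19, adjusted p = 0.221), although the groups did not overlap. Itgb2 stood at 0.268 to 0.312 of the level of Itgb1.

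The genes of the alpha partners of Itgb2 lie on chromosome 7, with Itgam from 128062640 to 128118491 and Itgax from 128129547 to 128150657 on the same strand, and Itgal from 127296260 to 127335138. Itgam, the alpha chain of the complement receptor CR3 on macrophages, was at 84.1 and 95.3 FPKM in siScr cells and at 114.4 and 117.1 FPKM in siZBP1 cells (limma log2 change 0.37, SE 0.07, adjusted p = 0.0238). In the annotation 70% of the exonic bases of Itgam also lie in exons of Gm49368 on the same strand. Itgax, common on dendritic cells and some macrophages, was at 3.98 and 4.99 FPKM in siScr cells and at 6.58 and 6.78 FPKM in siZBP1 cells (limma log2 change 0.49, adjusted p = 0.0390). Itgal, the alpha chain of LFA-1 on lymphocytes and other leukocytes, was at 8.71 and 7.61 FPKM in siScr cells and at 8.10 and 6.66 FPKM in siZBP1 cells, with overlapping groups (limma log2 change -0.13, 95% interval -0.44 to 0.18). The partners of a single beta chain thus differed among themselves, with Itgam and Itgax past the threshold and Itgal on the other side of 0. Itgad, a further partner outside the 40 genes, was at 0.107 FPKM at most.

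Macrophage markers were read beside this group, of which only Itgam and Itgax had passed. Of 17 markers measured, 11 (64.7%) were higher and 0 lower by limma, against 13.5% and 14.8% of all genes tested. Their log2 changes ranged from 0.029 to 1.25 around a median of 0.40. Their summed level was 8931 and 9937 FPKM in siScr cells and 14516 and 13753 FPKM in siZBP1 cells. Lyz2, the largest part of this sum, was at 2814 and 3647 FPKM in siScr cells and at 5871 and 5402 FPKM in siZBP1 cells. None of the defining markers was at 0. Csf1r was higher (limma log2 change 0.28, adjusted p = 0.0147), while Ptprc (0.15, adjusted p = 0.0744) and Adgre1 (0.12, adjusted p = 0.165) did not pass. Of the 12 stromal markers 6 (50%) were lower and 0 higher, with a median of -0.50. Their summed level was 5653 and 4715 FPKM in siScr cells and 3228 and 3267 FPKM in siZBP1 cells. Most of this sum came from Col1a1 and Col1a2. Col1a1 was at 3066 and 2520 FPKM in siScr cells and at 1128 and 1191 FPKM in siZBP1 cells, while Col1a2 did not pass (limma adjusted p = 0.450). The part of these markers in the integrin changes was not tested.

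**Figure D3:**
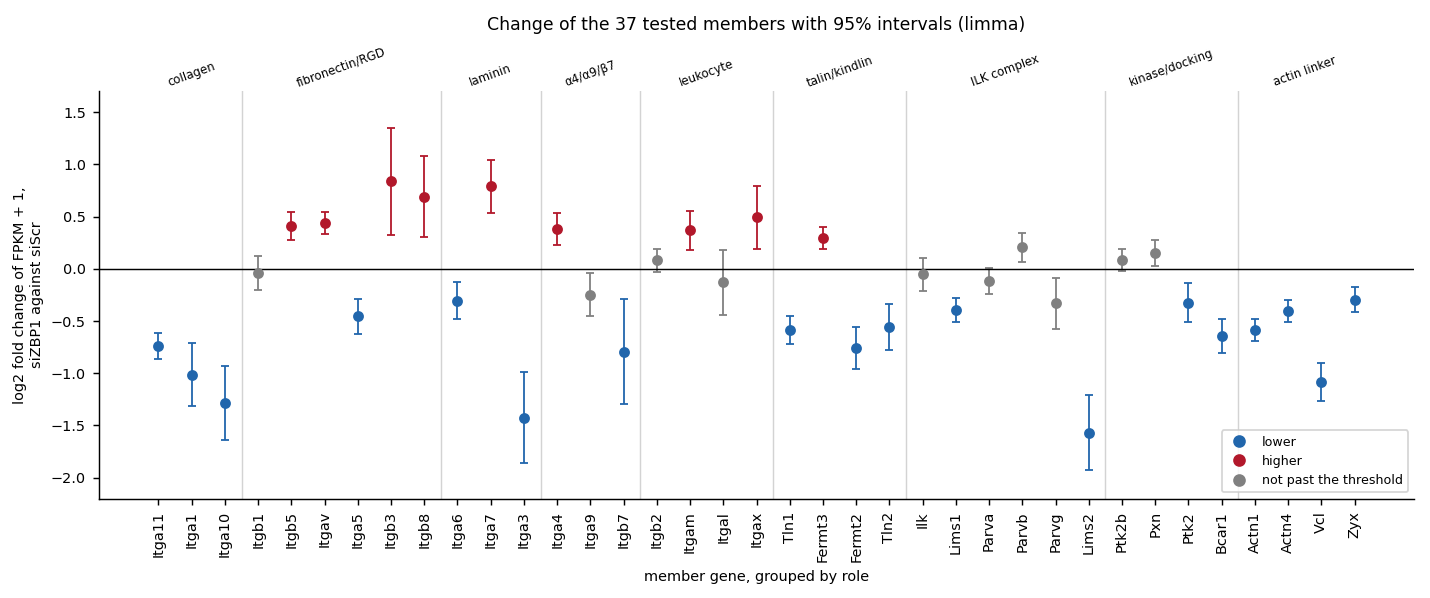
Limma log2 change of log2(FPKM + 1) in siZBP1 against siScr cells for the 37 tested genes, with 95% intervals, grouped by role (blue, lower, red, higher, and grey, not past an adjusted p of 0.05). All 3 collagen receptors and all 4 actin linkers are blue, and of the leukocyte chains 2 are red and 2 grey.

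Talins and kindlins, which bind integrin beta tails, were lower with 1 exception. Tln1, the main talin, was at 125.8 and 125.9 FPKM in siScr cells and at 80.5 and 86.6 FPKM in siZBP1 cells, 1.51-fold lower (limma adjusted p = 0.00475). Tln2 was at 16.1 and 15.0 FPKM in siScr cells and at 9.57 and 10.9 FPKM in siZBP1 cells, 1.52-fold lower (limma adjusted p = 0.0141). Both talin genes fell by nearly the same factor at levels far apart. Fermt2, the kindlin of most adherent cells, was at 60.7 and 53.9 FPKM in siScr cells and at 32.2 and 34.7 FPKM in siZBP1 cells, 1.72-fold lower (limma adjusted p = 0.00638). Fermt3, the kindlin of blood cells, went the other way, from 58.9 and 58.2 FPKM to 73.2 and 71.1 FPKM (limma log2 change 0.30, adjusted p = 0.0110). The kindlins were level in siScr cells, where Fermt3 was at 0.970 and 1.08 of Fermt2, and stood at ratios of 2.27 and 2.05 in siZBP1 cells. The exact permutation test of this ratio gave p = 0.333, the smallest that 2 samples against 2 allow, so it cannot decide.

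The complex of ILK, PINCH and parvin proteins, a scaffold that couples beta chains to actin, held the member with the most negative log2 change beside components that did not pass. Lims2, which encodes PINCH-2, was at 4.85 and 3.93 FPKM in siScr cells and at 0.890 and 0.731 FPKM in siZBP1 cells, 5.41-fold lower (limma log2 change -1.57, SE 0.14, adjusted p = 0.00501). Lims1, which encodes the more abundant PINCH-1, was at 71.0 and 67.8 FPKM in siScr cells and at 52.7 and 52.4 FPKM in siZBP1 cells, 1.32-fold lower (limma adjusted p = 0.00763). Both PINCH genes fell, and Lims2 moved from 0.0682 and 0.0580 to 0.0169 and 0.0140 of the level of Lims1. Ilk, which encodes the pseudokinase at the core of the complex, was at 117.3 and 108.1 FPKM in siScr cells and at 105.2 and 111.8 FPKM in siZBP1 cells, with overlapping groups (limma adjusted p = 0.551). In the annotation 81.7% of the exonic bases of Ilk also lie in exons of Taf10 on the opposite strand, and whether reads were counted by strand is not stated. Taf10 was higher, by a log2 change of 0.21 (limma, adjusted p = 0.0390). Rrp8, on the opposite strand as well, shares 17% of the exonic bases of Ilk. It was lower, by a log2 change of -0.58 (limma, adjusted p = 0.0396). The 3 parvins, like Ilk, did not pass. Their log2 changes were -0.11 for Parva, 0.20 for Parvb and -0.33 for Parvg, the parvin of blood cells (limma adjusted p = 0.139, 0.0502 and 0.0596). Parvb passed in 6 of the alternative settings and Parvg in 2.

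Kinases and docking proteins changed in part. Bcar1, which encodes the docking protein p130Cas, was at 12.8 and 13.4 FPKM in siScr cells and at 8.12 and 7.92 FPKM in siZBP1 cells, 1.63-fold lower (limma adjusted p = 0.00589). Ptk2, which encodes focal adhesion kinase, was at 13.5 and 12.2 FPKM in siScr cells and at 10.1 and 9.97 FPKM in siZBP1 cells (limma log2 change -0.33, adjusted p = 0.0330). Ptk2b, its relative PYK2 that is frequent in blood cells, was the more expressed kinase, with 62.3 and 63.9 FPKM in siScr cells and 66.8 and 66.9 FPKM in siZBP1 cells, and did not pass (limma adjusted p = 0.189). Pxn, the gene of the scaffold paxillin, did not pass either (limma log2 change 0.15, adjusted p = 0.0706, and 0.0479 with upper-quartile scaling).

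The actin linkers were all lower. Vcl, which encodes vinculin, the protein that reinforces the bond between talin and actin under force, was at 130.4 and 116.1 FPKM in siScr cells and at 56.3 and 58.7 FPKM in siZBP1 cells. It fell 2.14-fold (limma log2 change -1.08, SE 0.07, adjusted p = 0.00323), the largest fold fall among members above 10 FPKM on average. In the annotation 39.7% of its exonic bases also lie in exons of Ap3m1 on the opposite strand, which was at 20.5 to 23.1 FPKM. The alpha-actinin gene Actn1 was at 171.0 and 172.3 FPKM in siScr cells and at 111.6 and 115.9 FPKM in siZBP1 cells, 1.51-fold lower (limma adjusted p = 0.00343). The second alpha-actinin gene of the list, Actn4, fell 1.33-fold and Zyx, the gene of zyxin, fell 1.23-fold (limma adjusted p = 0.00588 and 0.0140). In each of these 4 genes both siZBP1 samples were below both siScr samples, as in 33.7% of all genes tested. The replicates of a group lay close together beside the gap between groups.

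Promoter windows of 250 bases before to 50 bases after the gene start, from RefSeq on GRCm38.p6, were searched for motifs of factors known to act on cytoskeletal or myeloid genes. A window was given for 28 of the 40 genes. The CArG box, the binding motif of serum response factor, was found in 2 of the 28 genes, Vcl and Fermt2, and in 1.81% of all genes with a window. The matches are shown with the CArG box in capitals, read 5' to 3' on the strand of the gene, for Vcl at chr14:20929162-20929189 on the plus strand and for Fermt2 at chr14:45530251-45530278 on the minus strand.
Vcl: ccactatgcCCTTATAAGGagcgccccg
Fermt2: ccttcatttCCATAAAAGGgcagcgctc
The first base of the motif is at position -227 from the start of Vcl and -204 from that of Fermt2. The TEAD motif GGAATG, on either strand, was found in 4 of the 28 genes (Vcl, Actn4, Itga10 and Itgb1) and in 16.6% of all genes. The ETS and PU.1 core GAGGAA, on either strand, was found in 10 of the 28 and in 31.2% of all genes. It overlaps the TEAD motif in the Itgb1 window. Itgam and Parvg were among the 10, beside stromal genes such as Itga11 and Itga5. Promoter entries were not found for Itgb2 and Itgal. Whether any of these motifs bears on the changes was not tested.

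Other genes of the same contacts were read from a list of 54 focal adhesion genes, of which 53 passed the filter. Over all genes tested 14.8% were lower and 13.5% higher. By limma 24 of the 53 fell (45.3%) and 4 rose (7.55%), and the median log2 change was -0.19. Among those that fell were Tgfb1i1, which encodes the paxillin relative Hic-5, with a log2 change of -1.41, and Nexn, which encodes an F-actin-binding protein, with a log2 change of -1.35 (limma, adjusted p = 0.00394 for each). Those that rose were Evl, Tes, Skap2 and Apbb1ip, with log2 changes from 0.14 to 0.37. Skap2 and Apbb1ip are adaptors of integrin activation best known from blood cells.

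Of 24 extracellular ligands 22 were tested, and 9 fell (40.9%) and 3 rose (13.6%), around a median log2 change of -0.20. Over all genes tested 14.8% were lower and 13.5% higher, so the share of ligands that rose was near that of all genes. Npnt, a ligand of alpha8 beta1, fell most, from 14.4 and 8.59 FPKM to 0.525 and 0.488 FPKM (limma log2 change -3.01, adjusted p = 0.00444). Ibsp, a bone protein with an RGD sequence, and Nid1, a basement membrane protein, had log2 changes of -2.21 and -2.02 (limma adjusted p = 0.00221 and 0.00150). Those that rose were Spp1, Fn1 and Icam1. Fn1, the ligand of alpha5 beta1 and alpha-v receptors, was at 1755 and 1712 FPKM in siScr cells and at 2502 and 2539 FPKM in siZBP1 cells (limma log2 change 0.54, adjusted p = 0.00530). Icam1, a ligand of the leukocyte integrins, had a log2 change of 0.44 (limma adjusted p = 0.00667). Itgb2, which binds ICAM1 with its alpha partners, did not pass. Of 6 other genes named as integrin chains or relatives, 5 were under 1 FPKM on average. Itgbl1, a secreted protein related to beta chains, was higher, from 8.42 and 9.58 FPKM to 21.3 and 19.4 FPKM (limma log2 change 1.09, adjusted p = 0.00437).

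**Figure D4:**
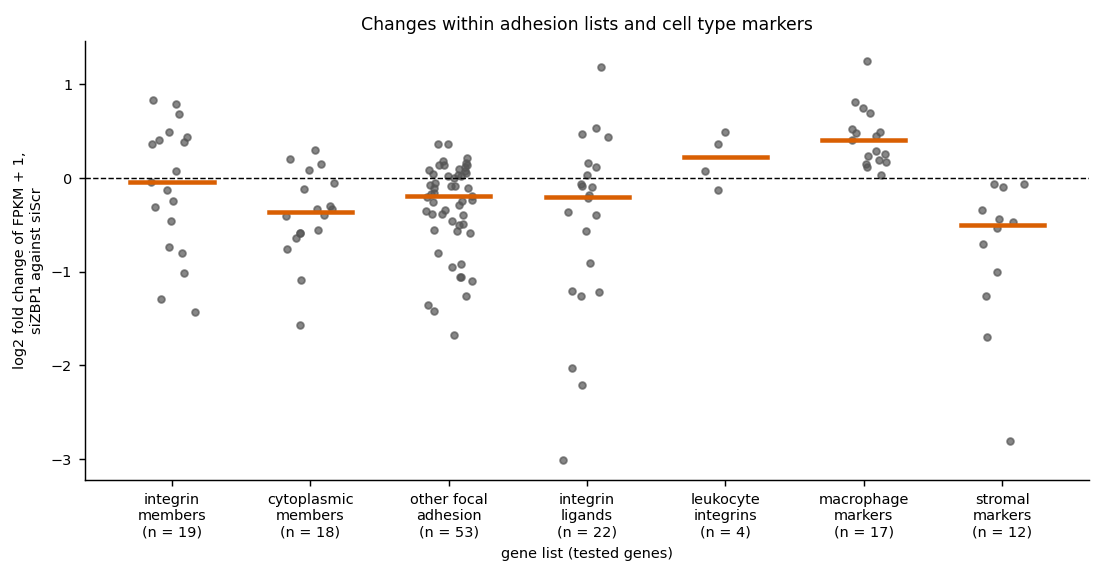
Limma log2 change of each tested gene (points) by list, with the median of the list as an orange bar and the median of all genes tested as a dashed line, n being the number of tested genes. The medians were -0.04 for integrin members, -0.36 for cytoplasmic members, -0.19 for other focal adhesion genes, -0.20 for integrin ligands, 0.22 for the leukocyte integrins, 0.40 for macrophage markers and -0.50 for stromal markers.

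Members listed for this work as known mainly from blood cells were counted apart. Of 8 such members (the 4 leukocyte integrins, Itgb7, Fermt3, Parvg and Ptk2b) 3 were higher (37.5%) and 1 was lower (12.5%), around a median log2 change of 0.08. Over all genes tested 13.5% were higher and 14.8% lower, so the lower share of the 8 was near that of all genes. Of the 29 other tested members 17 were lower (58.6%) and 6 higher (20.7%), with a median of -0.33. Those 6 were Itgav, Itgb5, Itgb3, Itgb8, Itga4 and Itga7. The counts depend on the list, as Itga4, which can pair with beta7, was not among the 8.

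**Figure D5:**
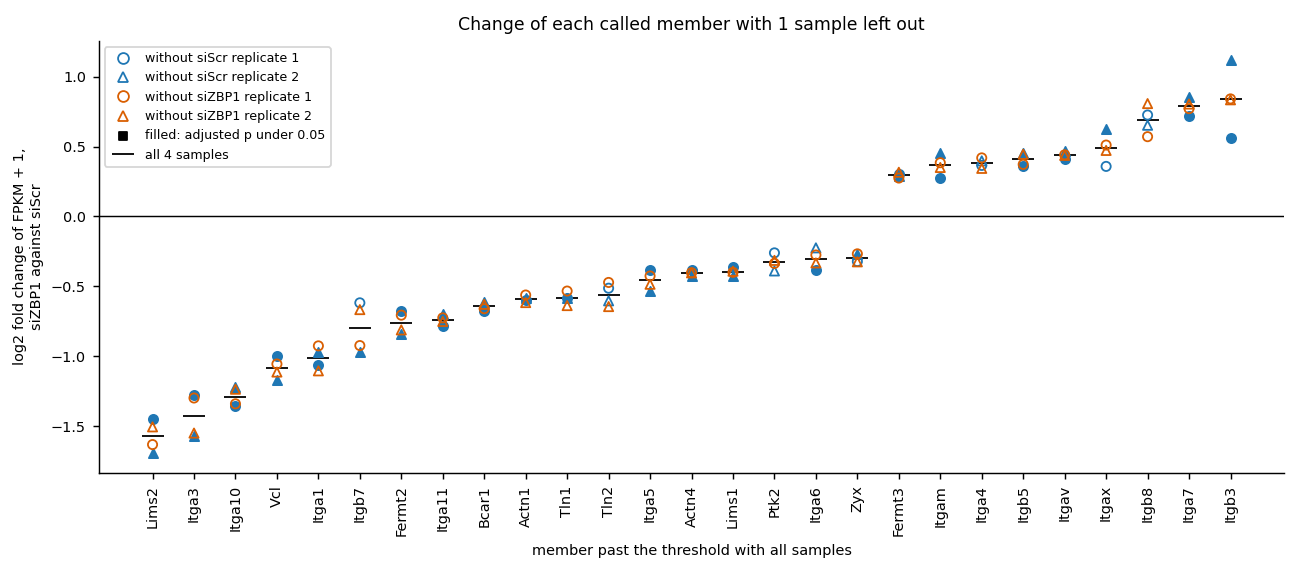
Limma log2 change of each of the 27 called members with all 4 samples (black line) and with 1 sample left out (blue, a siScr sample, and orange, a siZBP1 sample, with circles for replicate 1 and triangles for replicate 2). Filled symbols have an adjusted p under 0.05. No symbol crosses 0, and all orange symbols are open.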

How the data were processed

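RNA-seq of 2 siScr and 2 siZBP1 samples was used. The authors prepared TruSeq libraries, mapped reads with Tophat to mm10 and deposited FPKM values per gene and sample. Their methods name HTSeq and the submitters' processing notes list TopHat and Cufflinks. Gene annotation, strand setting and filters are not given in the sources used here. The deposited group means equal the means of the replicates. Of 24346 rows, 4 with repeated symbols were left out.

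The fit was limma 3.58.1 (R 4.3.3) with a variance trend on log2(FPKM + 1), for genes with a mean of at least 1 FPKM, with Benjamini-Hochberg adjustment over all genes tested and a threshold of 0.05. It was also run on simulated data, with noise drawn at the spread that the fit itself estimated. That run cannot show whether the calls in these samples hold. Over 1.5-fold refers to the ratio of group means. Members and lists were chosen with earlier results of these data known. Values in every sample are given for called members over 1.5-fold, the leukocyte integrins, the main stromal chains and the most expressed member of each role. From the focal adhesion and ligand lists the 3 largest called changes were to be named, of which 1 is not reported here, and other genes of these lists were named after their values were seen. Fermt2 and Tgfb1i1 are also in a list of genes that the study chose on these samples. Gene positions and exon overlaps are from GENCODE M21 (GRCm38, the assembly of mm10). Python 3.11.15 with pandas 2.3.3 was used. Ratios within samples, shares, promoter motifs and exon overlaps were added after member values were seen. Fits with a sample left out used the same 11956 genes. The alternatives were a pseudocount of 0.1 or 0.5, other filters, scalings and variance models, a replicate block and each sample left out.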

Additional observations from a re-analysis of the deposited data

How the results depend on the processing

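With all samples, 22 of the 27 called members stayed past the limma threshold under each alternative in which they were tested, and none changed sign. A mean of at least 5 FPKM left 7 of the 27 untested (Itga1, Itga3, Itga7, Itga10, Itgb7, Itgb8 and Lims2). Exceptions were Itgb7 (pseudocount of 0.1, quantile normalization), Itgax, Itgb3 and Ptk2 (no filter), Itgax (mean of at least 5 FPKM), and Itga6 and Itgb3 (no variance trend). Of the members not called, Parvb passed in 6 settings (adjusted p from 0.0338 to 0.0489), Parvg with a pseudocount of 0.1 (0.0490) and with robust variance estimation (0.0447), and Pxn with upper-quartile scaling (0.0479). With a mean of at least 5 FPKM the median log2 fold change of the stromal receptors was -0.043, because Itga1 and Itga10 are then left out. With a sample left out, which leaves 1 in its group that is assumed to vary like the other group, limma called 23 to 1297 genes lower and 22 to 1017 higher, and 0 to 15 members lower and 0 to 7 higher. The lowest counts were without a siZBP1 replicate (45 and 60 genes in all), and 19 of 27 members stayed called without each siScr replicate. The median of the leukocyte integrins ranged from 0.17 to 0.28, and that of the stromal receptors from -0.53 to -0.38. The log2 fold change of Zbp1 ranged from -2.79 to -2.33, with a limma adjusted p of 0.0748 and 0.0655 without siZBP1 replicates 1 and 2. Itgb1 and Ilk, not called, changed sign and ranged from -0.11 to 0.023 (Itgb1, highest without siScr replicate 2) and from -0.11 to 0.0047 (Ilk, highest without siScr replicate 1). With the replicate number as a block, 18 members were lower and 9 higher as before, among 1653 genes lower and 1463 higher. The samples share only a number (r = -0.063 between the replicate differences of both groups across genes). Low members such as Itga2, Itga8 and Itgb4 are limited by depth, which is unknown.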
